A study of Mus musculus with 8 samples.

Results

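The 10 goblet cell mucus genes described here are Muc2, Tff3, Clca1, Fcgbp, Zg16, Spink4, Agr2, Klk1, Muc13 and Muc3. They were chosen by gene symbol, and all 10 are listed in both count tables, of 40178 genes listed in either table. RNAseq was performed on intestinal epithelial cells (IECs), the cells released by EDTA washes, from the colon and the ileum of 2 WTIEC and 2 DDX5ΔIEC mice aged 8 weeks. WTIEC mice were DDX5(+/+) and DDX5ΔIEC mice DDX5(fl/fl), and both genotypes carried Vil1Cre, which the Villin1 promoter drives throughout the intestinal epithelium, so that the controls expressed the recombinase as well. Each tissue and genotype had 2 libraries. Both tissues were taken from every mouse, and equal replicate numbers within a genotype mark 1 mouse, which gives 8 libraries from 4 mice. No treatment was given. Total counts on genes ranged from 11571061 to 22984283 per library. In DDX5ΔIEC ileum replicate 2, 3 genes that resemble repeats (Gm10800, Gm21738 and Gm10801) took 19.49% of the counts, against at most 4.05% in the other libraries. Levels are given as CPM, the usual depth-scaled count, after TMM scaling over all 8 libraries, with the mean ± SD of 2 mice.

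Goblet cells are the mucus-secreting cells of the intestinal epithelium. They pack the gel-forming mucin MUC2 into granules, and after release it unfolds into a net that keeps bacteria away from the cell surface. Proteins secreted with it bind, cut or cross-link the gel, whereas transmembrane mucins stay on the apical membrane and are also made by absorptive enterocytes. The colon has the thicker mucus layer, and the ileum a looser one.

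By position, 4 of the 10 genes (Fcgbp, Klk1, Muc2 and Zg16) lie on chromosome 7 of GRCm38. Muc2 extends from 141690340 to 141754693 on the plus strand, Fcgbp from 28071236 to 28120862 on the plus strand, and Clca1 on chromosome 3 from 145003817 to 145032776 on the minus strand. All 10 are annotated as protein coding, and reads were counted over their exons. Other genes hold 24% of the 50-base words of Klk1 transcripts, and the kallikrein Klk1b5 alone 15.9%, so the Klk1 counts are less certain. The share was 6.42% for Fcgbp, 5.2% for Muc13 and 0 for the other members. Muc13 shares 184 exon bases with Gm15657, an antisense gene that had between 16 and 89 counts in these libraries. For Muc3, the RefSeq start lies 16724 bases upstream of the annotated start. Its level per kilobase rests on the annotated length of 1943 bases and is less certain.

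The targeted gene was lower in every DDX5ΔIEC library. Ddx5 RNA, from the gene of the RNA helicase that the knockout targets, was 771 and 706 CPM in WTIEC colon and 367 and 355 in DDX5ΔIEC colon. In the ileum it was 700.5 and 700.3 CPM in WTIEC and 340 and 326 in DDX5ΔIEC. The log2 fold change was -1.04 in the colon (edgeR adjusted p = 0.0866) and -1.07 in the ileum (adjusted p = 0.027). DDX5ΔIEC libraries thus kept 0.486 and 0.476 times the WTIEC level of Ddx5 RNA in colon and ileum, counted over the whole gene. Such counts do not show which part of the transcript is left. The paper reports an efficient loss of Ddx5 RNA by qRT-PCR and of DDX5 protein in the small intestine and colon. The libraries carried the RNA of epithelium and of the goblet lineage. All 7 epithelial markers examined, such as Epcam, were detected in every group, with a summed level of 8796 to 16153 CPM. The 12 genes listed as goblet lineage regulators, among them the transcription factors Atoh1 and Spdef, were detected in every group. They summed to 1066 to 1601 CPM. Klf4 was the largest part of the sum, with 317 to 713 CPM, while Atoh1 was 51.4 to 71.5 and Spdef 60.1 to 128 CPM. Nlrp6, with 159 to 274 CPM, and Xbp1, with 160 to 238, were also above Atoh1 and Spdef, so the sum is not a measure of goblet cells alone.

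The mucus genes were among the most abundant mRNAs of IECs in both tissues. In WTIEC colon they took 5.46% and 6.16% of all counts, and in WTIEC ileum 3.02% and 2.67%. The corresponding shares were 3.42% and 5.14% in DDX5ΔIEC colon and 3.49% and 2.65% in DDX5ΔIEC ileum. Both WTIEC colon libraries thus lay above all other libraries, and the shares of the genotypes overlapped in the ileum. All counts of DDX5ΔIEC ileum replicate 2 include the 19.49% on the 3 repeat-like genes. In CPM after TMM scaling, the 10 genes summed to 32045 and 27571 in WTIEC ileum and 38509 and 32807 in DDX5ΔIEC ileum. On this scale both knockout libraries were above both controls. The widest 95% Wilson interval of the shares of all counts, which covers counting error only, spanned 0.0214 percentage points, far less than the gap between mice. Muc2, Fcgbp and Clca1 together made up most of these reads in every library, between 2.02% and 5.34% of all counts.

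**Figure D1:**
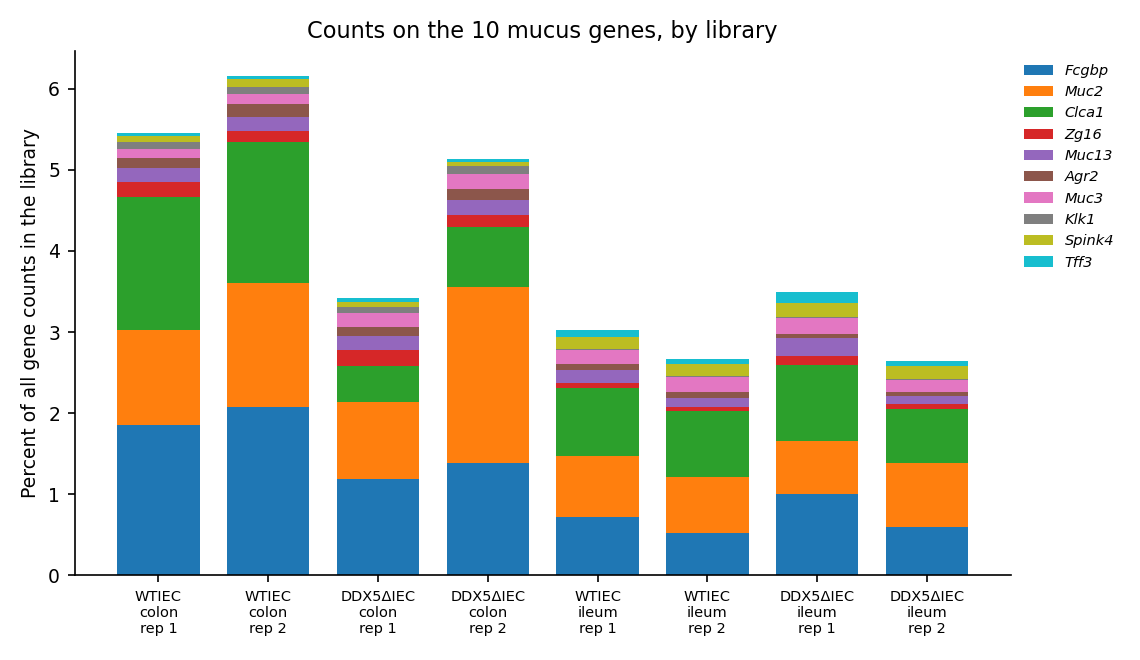
Percent of all gene counts in each of the 8 libraries that fell on each mucus gene, stacked by gene, for replicates 1 and 2 of each group. Fcgbp, Muc2 and Clca1 fill most of each bar, and the Clca1 segment is shorter in both DDX5ΔIEC colon libraries than in both WTIEC colon libraries.

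Levels of different genes were compared per length, as CPM divided by the gene length in kilobases that the tables list. In WTIEC colon, Clca1, a secreted metalloprotease that processes the MUC2 gel, had the highest level of the 10, with 4044 ± 102 CPM per kilobase (SD, n = 2), and ranked 3 among 20229 protein-coding genes. Muc2 followed with 1718 ± 310 and Fcgbp, a large mucus protein with repeated von Willebrand domains that associates with MUC2, with 1693 ± 109 CPM per kilobase. Muc2, Fcgbp, Spink4, Zg16 and Agr2 could not be ordered against their neighbours, because their libraries overlapped. Muc13 was the lowest of the 10 with 515 ± 1.7 CPM per kilobase, and even this placed it at rank 38 of protein-coding genes.

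The order in WTIEC ileum was another one. Spink4, a small Kazal-type protease inhibitor of goblet cells, was highest with 3185 ± 161 CPM per kilobase (SD, n = 2), followed by Clca1 with 2288 ± 116 and by Tff3, the trefoil peptide of goblet cells linked to epithelial repair, with 1587 ± 172. Muc2 came next with 1058 ± 78, and then Muc3 with 973 ± 20.7 CPM per kilobase. Each of these 5 genes was separated from the next by its 2 libraries. Klk1, the tissue kallikrein, a serine protease, was lowest with 151 ± 3.42 CPM per kilobase and ranked 263 among protein-coding genes. Fcgbp, Agr2, Muc13 and Zg16 overlapped with their neighbours between these ends.

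In DDX5ΔIEC colon, Muc2 had the highest mean, 1969 ± 1032 CPM per kilobase (SD, n = 2), but its libraries overlapped with those of Clca1 at 1407 ± 448. In DDX5ΔIEC ileum the order began with Spink4 at 4151 ± 13.7, Clca1 at 2465 ± 411 and Tff3 at 2321 ± 789 CPM per kilobase, and the last of these overlapped with Clca1. Klk1 was again lowest in the ileum, with 156 ± 12 CPM per kilobase. In both DDX5ΔIEC groups, 6 of the 9 pairs of neighbours overlapped, against 4 in WTIEC colon and 3 in WTIEC ileum.

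**Figure D2:**
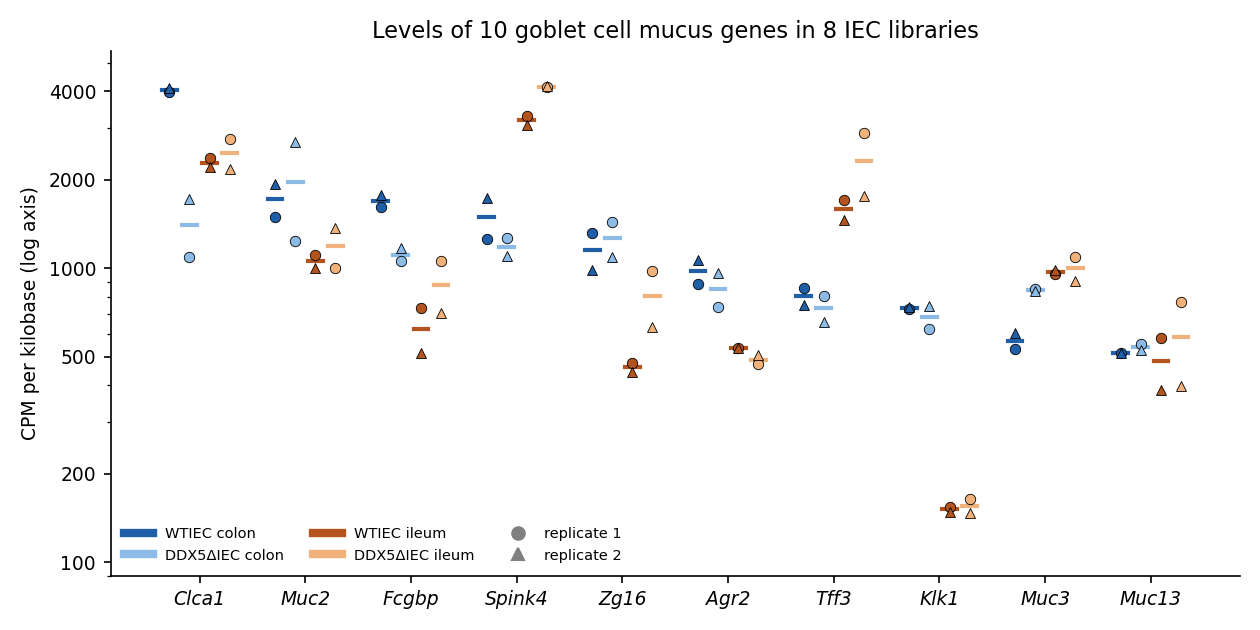
Level of each mucus gene in CPM per kilobase on a log axis, with circles for replicate 1, triangles for replicate 2 and a bar at the mean of each group. Klk1 has a mean of 733 in WTIEC colon and of 151 and 156 in WTIEC and DDX5ΔIEC ileum, both DDX5ΔIEC colon points of Clca1 lie below its WTIEC colon points, and the DDX5ΔIEC colon libraries of Muc2 are far apart.

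The colon was compared between genotypes to ask which mucus genes differ when the epithelium carries the floxed Ddx5 allele and Cre. Clca1 and Fcgbp were lower in both DDX5ΔIEC colon libraries than in both WTIEC libraries, and Muc3 was higher. These 3 of the 10 members were past the study's criterion (an absolute log2 fold change reaching 0.5, at an unadjusted p under 0.05), which 6.71% of the 15362 genes tested in the colon also passed (3.67% lower, 3.04% higher). None of the 10 passed edgeR's quasi-likelihood test at an adjusted p under 0.05, nor did any of the 15362 genes (0%). The count at an unadjusted p under 0.05 was 3 of 10 members (12% of all genes), and DESeq2 called 3 of 10 members and 117 genes at an adjusted p under 0.05. Libraries of the genotypes did not overlap for 4 members (the 3 above and Muc13), a share close to the 44.6% of all genes. In bulk RNA, fewer cells of a type and less RNA per cell cannot be told apart.

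Clca1 showed the widest genotype difference of the 10. Its RNA was 15002 and 15546 CPM in WTIEC colon replicates 1 and 2 and 4118 and 6508 in DDX5ΔIEC colon replicates 1 and 2. Both knockout libraries were below both controls, and the lower of the knockout values came from replicate 1. On the log2 scale the difference was -1.57 ± 0.18 (SE; edgeR adjusted p = 0.166), which is a level 0.337 times that of WTIEC. Leaving out any 1 of the 4 colon libraries gave values between -1.91 and -1.24.

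A ratio of 2 genes within a library does not depend on how libraries are scaled. Per 100 Muc2 reads, there were 140 and 113 Clca1 reads in WTIEC colon and 46.6 and 33.8 in DDX5ΔIEC colon. In the ileum the ratio was 113 and 117 in WTIEC and 146 and 84.1 in DDX5ΔIEC. The colon of both DDX5ΔIEC mice was thus set apart from the other 6 libraries by few Clca1 reads per Muc2 read.

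Fcgbp RNA was 16957 and 18583 CPM in WTIEC colon and 11113 and 12269 in DDX5ΔIEC colon. The groups did not overlap, and the replicates lay close together. This was a log2 fold change of -0.61 ± 0.12 (SE; edgeR adjusted p = 0.262). It stayed between -0.69 and -0.55 with any 1 colon library left out, but the unadjusted p was 0.2 without WTIEC colon replicate 1 and 0.296 without WTIEC colon replicate 2, where the 3 libraries left were fitted without the block. With all 8 libraries in 1 fit it was -0.6 with an unadjusted p of 0.0768, which ended the call of Fcgbp and left 2 members past the criterion.

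Muc3, a transmembrane mucin of the apical brush border, was 1034 and 1173 CPM in WTIEC colon and 1657 and 1630 in DDX5ΔIEC colon. Both knockout libraries were higher than both controls. Its log2 fold change was 0.57 ± 0.11 (SE; edgeR adjusted p = 0.261). Without WTIEC colon replicate 1 it was 0.47, below the criterion, with an unadjusted p of 0.104.

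Muc2 itself did not pass the criterion, and its 2 knockout mice lay on either side of the controls. Its RNA was 10679.5 and 13805 CPM in WTIEC colon and 8832 and 19236 in DDX5ΔIEC colon. The library of replicate 1 was the lowest of the 4 and that of replicate 2 the highest. The fitted log2 fold change was 0.09 ± 0.21 (SE; edgeR adjusted p = 0.879). It was 0.64 without DDX5ΔIEC colon replicate 1 and -0.49 without DDX5ΔIEC colon replicate 2, each with an adjusted p under 0.05, so the sign depended on which knockout mouse was kept. Muc2 took 27.7% and 42.3% of the mucus reads in the colon of the 2 DDX5ΔIEC mice, against 18.6% to 29.8% in the other 6 libraries, where the widest 95% Wilson interval of such shares spanned 0.324 percentage points.

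The other 6 members had log2 fold changes between -0.33 and 0.12 in the colon. Spink4 was 599 and 827 CPM in WTIEC and 604 and 526 in DDX5ΔIEC. Tff3 was 424 and 371 CPM in WTIEC and 398 and 323 in DDX5ΔIEC. Genotypes overlapped for both of these small secreted peptides. Agr2, a protein disulfide isomerase of the endoplasmic reticulum needed for MUC2 folding, was 1143 and 1383 CPM in WTIEC and 951 and 1241 in DDX5ΔIEC. Zg16, a lectin-like protein that binds Gram-positive bacteria, was 1657 and 1243 CPM in WTIEC and 1805 and 1373 in DDX5ΔIEC. For these genes the spread between mice of 1 genotype was as wide as the gap between genotypes. Klk1 was 784 and 796 CPM in WTIEC and 670 and 800 in DDX5ΔIEC. Muc13, a transmembrane mucin, was 1562 and 1569 CPM in WTIEC and 1683 and 1602 in DDX5ΔIEC, apart but with a log2 fold change of only 0.06 ± 0.1 (SE; edgeR adjusted p = 0.835).

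Over the 10 members, the median log2 fold change in the colon was -0.14, with 4 values above 0 and 6 below, beside a median of -0.00042 over all genes tested. Markers of other cell types also differed between these libraries. All 4 tuft cell markers tested were past the criterion and lower in DDX5ΔIEC colon, with the summed level of the 6 markers at 64.3 and 71.3 CPM in WTIEC and 22.5 and 47.7 in DDX5ΔIEC. Of 7 T cell markers, 5 were past the criterion and lower, and the summed level was 51.6 and 38.4 CPM in WTIEC against 8.5 and 20.8 in DDX5ΔIEC. None of the T cell and tuft cell markers was at 0 in a whole group. Of 6 colonocyte markers, 4 were past the criterion and higher, with summed levels of 4222 and 4501 CPM in WTIEC and 5022 and 5753 in DDX5ΔIEC. Of 7 enteroendocrine markers, 2 were past the criterion and higher and 1 was lower. Of the 5 stroma markers tested, 1 was higher and 1 lower. Of the 5 ileal enterocyte markers tested, 1 was past the criterion and higher, and of the 4 Paneth cell markers tested, 1 was lower. The part of these cells in the differences of Clca1, Fcgbp and Muc3 was not tested.

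In the ileum, Zg16 and Tff3 were higher in both DDX5ΔIEC libraries than in both WTIEC libraries. These 2 of the 10 members were past the study's criterion, which 7.35% of the 14068 genes tested in the ileum also passed (3.87% higher, 3.48% lower). None of the 10 had an adjusted p under 0.05 with edgeR's quasi-likelihood test, against 0.697% of all genes. The count at an unadjusted p under 0.05 was 2 of 10 members (12.3% of all genes), and DESeq2 called 1 of 10, which was Zg16, and 39 genes at an adjusted p under 0.05. Libraries of the genotypes did not overlap for 4 members, with Spink4 higher and Agr2 lower beside the 2 above, where 39.5% of all genes did not overlap (18.7% higher, 20.8% lower).

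Zg16 RNA was 599 and 559 CPM in WTIEC ileum and 1228 and 794 in DDX5ΔIEC ileum. Both knockout libraries were above both controls, replicate 1 further than replicate 2. The log2 fold change was 0.77 ± 0.21 (SE; edgeR adjusted p = 0.149). It was 0.46 without DDX5ΔIEC ileum replicate 1 and 1.09 without replicate 2, the library with many repeat-like reads. With the 3 repeat-like genes left out of the counts it was 0.78. The unadjusted p was 0.0816 without WTIEC ileum replicate 1 and 0.115 without WTIEC ileum replicate 2, so the criterion was met with all 4 libraries or without DDX5ΔIEC replicate 2.

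Tff3 RNA was 843 and 723 CPM in WTIEC ileum and 1419 and 869 in DDX5ΔIEC ileum. Both knockout libraries were again higher, and DDX5ΔIEC replicate 2 lay near the controls. Its log2 fold change was 0.51 ± 0.21 (SE; edgeR adjusted p = 0.358). It was 0.15 without DDX5ΔIEC ileum replicate 1 and 0.87 without replicate 2. The unadjusted p was 0.177 and 0.349 without WTIEC ileum replicates 1 and 2. Without the replicate block, 1 of the 10 members was past the criterion, and the unadjusted p of Tff3 was 0.0866.

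The other members did not pass the criterion in the ileum. Fcgbp was 7666 and 5400 CPM in WTIEC ileum and 11083 and 7399 in DDX5ΔIEC ileum, a log2 fold change of 0.5 ± 0.29 (SE; edgeR adjusted p = 0.535), which became 0.5 with an unadjusted p of 0.0361, past the criterion, once the 3 repeat-like genes were left out. Spink4 was 1574 and 1465 CPM in WTIEC and 1976 and 1985 in DDX5ΔIEC, a log2 fold change of 0.39 ± 0.22 (SE; edgeR adjusted p = 0.534). Their means were higher in the knockout, but the spread of Fcgbp between mice of 1 genotype covered the difference. Clca1 was 8953 and 8331 CPM in WTIEC and 10411 and 8213 in DDX5ΔIEC. Muc2 was 7936 and 7150 CPM in WTIEC and 7154 and 9766 in DDX5ΔIEC. Both overlapped between genotypes, and their log2 fold changes were 0.1 ± 0.3 and 0.15 ± 0.3 (SE). Agr2 had the only negative value of the 10, -0.13 ± 0.18 (SE), with 689 and 694 CPM in WTIEC and 608 and 654 in DDX5ΔIEC. Klk1, Muc3 and Muc13 had log2 fold changes of 0.04, 0.03 and 0.23, and their genotypes overlapped.

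Over the 10 members, the median log2 fold change in the ileum was 0.19, with 9 values above 0, beside a median of -0.0046 over all genes tested. In the same libraries all 5 tuft cell markers tested were past the criterion and lower in DDX5ΔIEC, with summed levels of 314 and 471 CPM in WTIEC and 204 and 259 in DDX5ΔIEC. Of 7 enteroendocrine markers, 3 were past the criterion and higher, with summed levels of 65.9 and 61.7 CPM in WTIEC and 103 and 88.2 in DDX5ΔIEC. Of 6 Paneth cell markers, 1 was past the criterion and higher, and the summed level was 8624 and 5744 CPM in WTIEC and 8049 and 8920 in DDX5ΔIEC. Of 8 ileal enterocyte markers, 1 was past the criterion and higher and 1 was lower. The same held for 1 and 1 of the 4 colonocyte markers tested. Of the 2 B and plasma cell markers tested, 1 was higher, and of the 4 myeloid markers tested, 1 was higher. None of the 7 T cell markers was past the criterion. The part of these cells in the values of Zg16 and Tff3 was not tested.

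**Figure D3:**
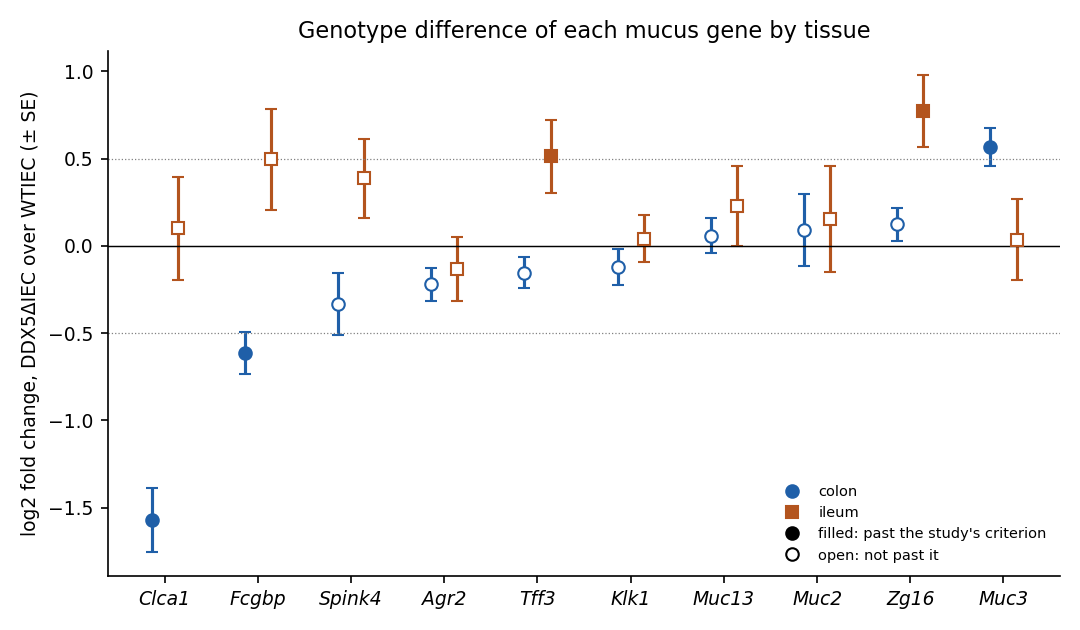
The log2 fold change of each mucus gene in DDX5ΔIEC over WTIEC with its standard error, circles for the colon and squares for the ileum, filled where the gene was past the study's criterion. Clca1 (-1.57) and Fcgbp (-0.61) are filled below 0 and Muc3 (0.57) above it in the colon, whereas Zg16 (0.77) and Tff3 (0.51) are filled in the ileum, and no gene is filled in both tissues.

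No member was past the criterion in both tissues, so the difference between the tissues was tested itself, as the interaction of tissue and genotype over all 8 libraries with the mouse as a block. None of the 10 members had an adjusted p under 0.05 in this edgeR test, which called 0.00618% of 16178 genes. At an unadjusted p under 0.05 there were 6 members, beside 6.37% of all genes, and DESeq2 called 1 member, which was Clca1, and 36 genes at an adjusted p under 0.05. The log2 fold change of Clca1 was 1.66 ± 0.4 higher in the ileum than in the colon (SE; edgeR adjusted p = 0.607). Clca1 was lower in 2 of 2 knockout mice in the colon, whereas in the ileum 1 knockout library was above and 1 below the controls. The interaction of Fcgbp was 1.1 ± 0.4 (SE; edgeR adjusted p = 0.753). Fcgbp was lower in both DDX5ΔIEC colon libraries than in both WTIEC colon libraries, whereas its ileal libraries overlapped between genotypes. Between same-numbered libraries, which were not shown to be pairs of mice, its log2 ratios were -0.61 and -0.6 in the colon. In the ileum they were 0.53 and 0.45. The other 4 members under this unadjusted threshold were Spink4 (0.7), Tff3 (0.65), Zg16 (0.64) and Muc3 (-0.54). For Muc2, Agr2, Klk1 and Muc13 the interaction lay between 0.05 and 0.16. The interaction of Clca1 passed an adjusted p of 0.05 without DDX5ΔIEC colon replicate 2 (2.18) or DDX5ΔIEC ileum replicate 2 (2.19), and that of Tff3 without DDX5ΔIEC colon replicate 2 (0.87).

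The ileum was compared with the colon within each mouse, which sets the tissue difference of the controls beside the genotype differences. In WTIEC mice, 7 of the 10 members passed edgeR's quasi-likelihood test at an adjusted p under 0.05, where 37.7% of 16178 genes did (19.5% higher, 18.3% lower in the ileum). Klk1, Fcgbp, Zg16 and Agr2 fell from colon to ileum, and Tff3, Spink4 and Muc3 rose. The libraries of the tissues did not overlap for 9 members, beside 72.8% of all genes, and the exception was Muc13.

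Klk1 had the widest tissue difference. It was 784 and 796 CPM in WTIEC colon and 165 and 160 in WTIEC ileum, a log2 difference of -2.28 ± 0.15 (SE; edgeR adjusted p = 6e-05). In DDX5ΔIEC mice it was 670 and 800 CPM in the colon and 177 and 158 in the ileum, a log2 difference of -2.13 ± 0.15 (SE; adjusted p = 8.46e-05). All 4 mice had about the same low ileal level.

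Fcgbp differed by -1.46 ± 0.29 on the log2 scale between ileum and colon of WTIEC mice (SE; edgeR adjusted p = 0.00722), and by -0.37 ± 0.28 in DDX5ΔIEC mice, which did not pass (adjusted p = 0.344). Its level was 11113 CPM in the colon and 11083 in the ileum of DDX5ΔIEC replicate 1, and 12269 and 7399 in those of replicate 2, so the mice differed. Zg16 fell by 1.31 on the log2 scale from colon to ileum in WTIEC mice (SE 0.16, edgeR adjusted p = 0.00095) and by 0.67 in DDX5ΔIEC mice (SE 0.16, adjusted p = 0.0153). Agr2 fell by 0.86 in WTIEC mice (SE 0.15, edgeR adjusted p = 0.0047) and by 0.78 in DDX5ΔIEC mice (SE 0.15, adjusted p = 0.00709). The knockout difference of Zg16 no longer passed without the mouse as a block or with any 1 WTIEC library left out.

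Among the members higher in the ileum, Spink4 was 599 and 827 CPM in WTIEC colon and 1574 and 1465 in WTIEC ileum, a log2 difference of 1.11 ± 0.18 (SE; edgeR adjusted p = 0.00355). In DDX5ΔIEC mice the difference was 1.81 ± 0.19 (adjusted p = 0.000465). Tff3 rose by 0.98 ± 0.15 from colon to ileum in WTIEC mice (SE; edgeR adjusted p = 0.00241) and by 1.63 ± 0.15 in DDX5ΔIEC mice (adjusted p = 0.000295). Muc3 rose by 0.78 ± 0.16 in WTIEC mice (SE; edgeR adjusted p = 0.00843), and its difference was 0.23 ± 0.16 in DDX5ΔIEC mice (adjusted p = 0.282). Both DDX5ΔIEC differences of Spink4 and Tff3 exceeded those of the controls, whereas the tests of these gaps, given above as interactions, did not pass after adjustment.

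Muc2, Clca1 and Muc13 did not pass in WTIEC mice. Muc2 was 10679.5 and 13805 CPM in WTIEC colon and 7936 and 7150 in WTIEC ileum, a log2 difference of -0.69 ± 0.27 (SE; edgeR adjusted p = 0.0844). Clca1 was 15002 and 15546 CPM in WTIEC colon and 8953 and 8331 in WTIEC ileum, a log2 difference of -0.82 ± 0.28 (adjusted p = 0.0594). The colon libraries were above the ileum libraries for both genes. With no filter on low counts both passed in WTIEC mice at an adjusted p under 0.05 (-0.73 for Muc2 and -0.87 for Clca1). With DESeq2 Clca1 passed in WTIEC mice as well (-0.81), whereas Muc2 did not. In DDX5ΔIEC mice the sign of Clca1 was the other one, with 4118 and 6508 CPM in the colon and 10411 and 8213 in the ileum, a log2 difference of 0.84 ± 0.29 (adjusted p = 0.0583). This value was 0.32 and 0.33 without the colon or the ileum library of DDX5ΔIEC replicate 1, and 1.35 and 1.36 without those of replicate 2, where it passed at an adjusted p under 0.05, as it did with DESeq2 (0.87). Muc13 differed by -0.13 ± 0.25 in WTIEC and 0.03 ± 0.25 in DDX5ΔIEC mice, with 1 mouse of each genotype on either side of 0.

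In DDX5ΔIEC mice, 5 of the 10 members passed at an adjusted p under 0.05 (37.8% of all genes did, 19.4% higher and 18.3% lower in the ileum), namely Klk1, Agr2, Zg16, Tff3 and Spink4. The WTIEC count was 8 with DESeq2 and 9 with no filter on low counts, and it moved with single libraries. It was 2 without WTIEC colon replicate 1 or WTIEC ileum replicate 1 and 3 without WTIEC colon replicate 2 or WTIEC ileum replicate 2, where 1 control mouse is left, and up to 9 with 1 DDX5ΔIEC library left out, where Muc2 and Clca1 passed as well. Without 1 DDX5ΔIEC library their WTIEC values were -0.7 to -0.69 and -0.83. The median log2 difference of the 10 members was -0.76 in WTIEC and -0.17 in DDX5ΔIEC mice, beside -0.02 and -0.04 over all genes tested.

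**Figure D4:**
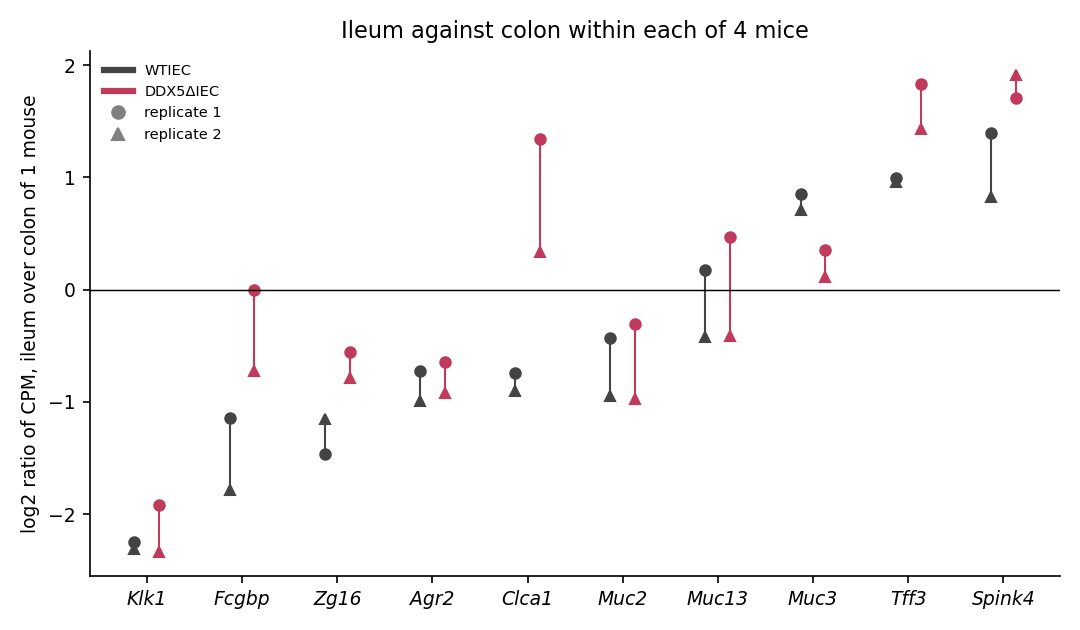
The log2 ratio of CPM, ileum over colon of the same mouse, for each mucus gene, with WTIEC mice in grey and DDX5ΔIEC mice in red, circles for replicate 1 and triangles for replicate 2. Klk1 lies near -2 in all 4 mice, Spink4 and Tff3 lie above 0 in all 4, and Clca1 lies below 0 in both WTIEC mice and above 0 in both DDX5ΔIEC mice.

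The promoters of 3 members are shown: Klk1 and Fcgbp, the members with the widest fall from colon to ileum in WTIEC mice, and Muc2, the mucin that gives the gel its frame. They include no member that rose. RefSeq promoter windows of GRCm38.p6 were matched to 6 of the 10 members, in 7 windows; Tff3, Clca1, Zg16 and Spink4 had no entry. Each sequence gives the 250 bases before the RefSeq start, 5′ to 3′ on the gene's strand, at chr7:44225110-44225359 for Klk1, chr7:28070986-28071235 for Fcgbp and chr7:141690090-141690339 for Muc2, all on the plus strand. Capitals mark matches on either strand to 5 short motifs, picked after a first look at these windows.
Klk1: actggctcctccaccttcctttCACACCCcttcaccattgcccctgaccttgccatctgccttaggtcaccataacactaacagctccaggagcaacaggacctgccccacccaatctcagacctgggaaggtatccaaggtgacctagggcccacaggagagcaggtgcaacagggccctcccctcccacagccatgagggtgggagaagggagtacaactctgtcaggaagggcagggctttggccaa
Fcgbp: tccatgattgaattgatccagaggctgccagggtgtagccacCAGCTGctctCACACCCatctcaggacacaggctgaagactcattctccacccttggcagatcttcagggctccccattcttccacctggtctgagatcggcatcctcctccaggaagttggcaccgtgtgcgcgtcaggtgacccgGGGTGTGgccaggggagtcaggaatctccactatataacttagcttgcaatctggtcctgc
Muc2: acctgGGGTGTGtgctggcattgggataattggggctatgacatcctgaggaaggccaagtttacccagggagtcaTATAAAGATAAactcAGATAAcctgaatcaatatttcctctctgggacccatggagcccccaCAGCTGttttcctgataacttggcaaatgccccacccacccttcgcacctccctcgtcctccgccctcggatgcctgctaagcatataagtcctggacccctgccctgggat

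One motif was GGGTGTG, of the kind that Krüppel-like factors bind. The second was CAGCTG, an E-box that reads the same on both strands. The third was AGATAA, which factors of the GATA family bind. The others were TTTATG, bound by CDX factors, and the core promoter box TATAAA. The Krüppel-like motif occurred on either strand in the windows of Klk1, Fcgbp, Muc2 and Agr2, which is 4 of the 7 member windows, and in 6.93% of the 32851 windows of all genes. In Klk1 it lies at bases -228 to -222 from the RefSeq start, in Fcgbp at -198 to -192 and at -61 to -55, and in Muc2 at -245 to -239. The E-box was found in Fcgbp and Muc2 (13% of all windows), the GATA motif in Muc2 alone (9.99%) and the CDX motif in Agr2 and Muc13 (10.8%). The exact letters TATAAA were found in Muc2 alone (12.4%), at bases -174 to -169 from the RefSeq start. There they overlap the first GATA motif by 1 base. TATA boxes spelled with other letters were not searched, in Muc2 or in the other windows. These are matches of letters, not binding sites, and the motifs are no independent choice.

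The other genes of mucus production were examined as lists. Among the 12 genes listed as goblet lineage regulators, 1 was past the criterion in the colon and lower, namely Gfi1, a transcriptional repressor of the secretory lineage. It was 15.9 and 16.5 CPM in WTIEC colon and 8.61 and 7.93 in DDX5ΔIEC colon, a log2 fold change of -0.98 ± 0.15 (SE; edgeR adjusted p = 0.229). In the ileum 1 of the 12 was past it and higher, Foxa2, a forkhead transcription factor with low counts there, at 3.09 and 3.82 CPM in WTIEC and 6 and 5.46 in DDX5ΔIEC (log2 fold change 0.75 ± 0.27, SE; adjusted p = 0.293). The median log2 fold change of the list was -0.07 in the colon and 0.2 in the ileum. Between tissues of WTIEC mice, 9 of the 12 were lower in the ileum and 1 higher at an edgeR adjusted p under 0.05. Of all genes, 18.3% were lower and 19.5% higher at this threshold. By sign alone, 11 of the 12 fell and 1 rose. The 3 with the widest difference were Foxa2 (-2.86), Creb3l1 (-1.34), a membrane-bound transcription factor of the secretory pathway, and Ern2 (-1.09), the goblet cell form of the unfolded protein sensor IRE1.

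Of the 17 other goblet-enriched genes, 14 were tested in the colon, and 9 of them were past the criterion, 6 lower and 3 higher. Retnlb, a resistin-like antimicrobial peptide, was 1028 and 1151 CPM in WTIEC colon and 98.8 and 364 in DDX5ΔIEC colon, a log2 fold change of -2.53 ± 0.43 (SE; edgeR adjusted p = 0.246). Ang4, an antimicrobial ribonuclease also made by Paneth cells, was 1312 and 1502 CPM in WTIEC and 200 and 387 in DDX5ΔIEC (log2 fold change -2.35 ± 0.2, SE; adjusted p = 0.0866). These antimicrobial genes were lower in both knockout mice by more than any of the 10 mucus genes. Reg4, a secreted C-type lectin, had a log2 fold change of -1.72 ± 0.16 and Itln1, the lectin intelectin, one of -1.65 ± 0.34 (SE). The serine protease Tpsg1 (-0.66) and the calpain Capn9 (-0.76) were lower as well. The 3 higher genes were Clca4a, a relative of Clca1, with 106 and 122 CPM in WTIEC and 255 and 339 in DDX5ΔIEC (log2 fold change 1.36 ± 0.09, SE; adjusted p = 0.065), Clca4b (1.03) and Muc6, a gastric gland mucin with 3 and 16 counts in WTIEC colon and 13 and 56 in DDX5ΔIEC colon. None of these 9 passed at an adjusted p under 0.05.

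In the ileum 12 of these genes were tested and none was past the criterion, with log2 fold changes between -0.05 and 0.42 and a median of 0.14. The summed level of the 17 genes was 4154 and 4572 CPM in WTIEC colon and 1624 and 2292 in DDX5ΔIEC colon, and in the ileum 8438 and 8068 in WTIEC and 9450 and 9072 in DDX5ΔIEC. The colon sums did not overlap between genotypes, and neither did the ileum sums, in the other direction. The ileum sums drew on different genes in each DDX5ΔIEC mouse. Clca4b was 2440 and 1280 CPM in DDX5ΔIEC ileum, against 1760 and 1883 in WTIEC ileum. Ang4 was 2271 and 2987 CPM in DDX5ΔIEC ileum, against 2359 and 2224 in WTIEC ileum, so both genes overlapped between genotypes. In WTIEC mice 4 of the 14 tested genes were higher in the ileum than in the colon and 5 lower at an edgeR adjusted p under 0.05. Of all genes, 19.5% were higher and 18.3% lower at this threshold. By sign alone, 6 of the 14 rose and 8 fell. Clca4b (7.7) and Itln1 (4.63) had the widest rise on the log2 scale, and Tff2 had the widest fall, with 15 and 11 counts in WTIEC colon and 3 and 0 in WTIEC ileum.

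Among 13 genes of mucin glycosylation and mucus processing, 12 were tested in each tissue. None was past the criterion in the colon. In the ileum 1 was past it and higher, and 1 was past it and lower. Gcnt3, an enzyme that builds core 2 O-glycans, was 162 and 149 CPM in WTIEC and 286 and 194 in DDX5ΔIEC (log2 fold change 0.6 ± 0.15, SE; edgeR adjusted p = 0.124). Mep1b, a meprin that cuts MUC2, was 1275 and 1019 CPM in WTIEC and 928 and 437 in DDX5ΔIEC (-0.84 ± 0.23, SE; adjusted p = 0.156). Of the 12, 7 were lower and 2 higher in the ileum than in the colon of WTIEC mice at an edgeR adjusted p under 0.05. Of all genes, 18.3% were lower and 19.5% higher at this threshold. By sign alone, 9 of the 12 fell and 3 rose. Tgm3, a transglutaminase that cross-links MUC2, was 739 and 661 CPM in WTIEC colon and 1.11 and 2.78 in WTIEC ileum (-8.59), and Gcnt4 (3.83) and Mep1b (3.59) rose. Of 8 other transmembrane mucins, 3 were tested in the colon and 2 in the ileum, none past the criterion. Muc1 had 103 and 93 counts in WTIEC colon and 2 and 1 in WTIEC ileum, Muc4 differed by -0.72 and Muc3a by 0.47 on the log2 scale between ileum and colon.

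**Figure D5:**
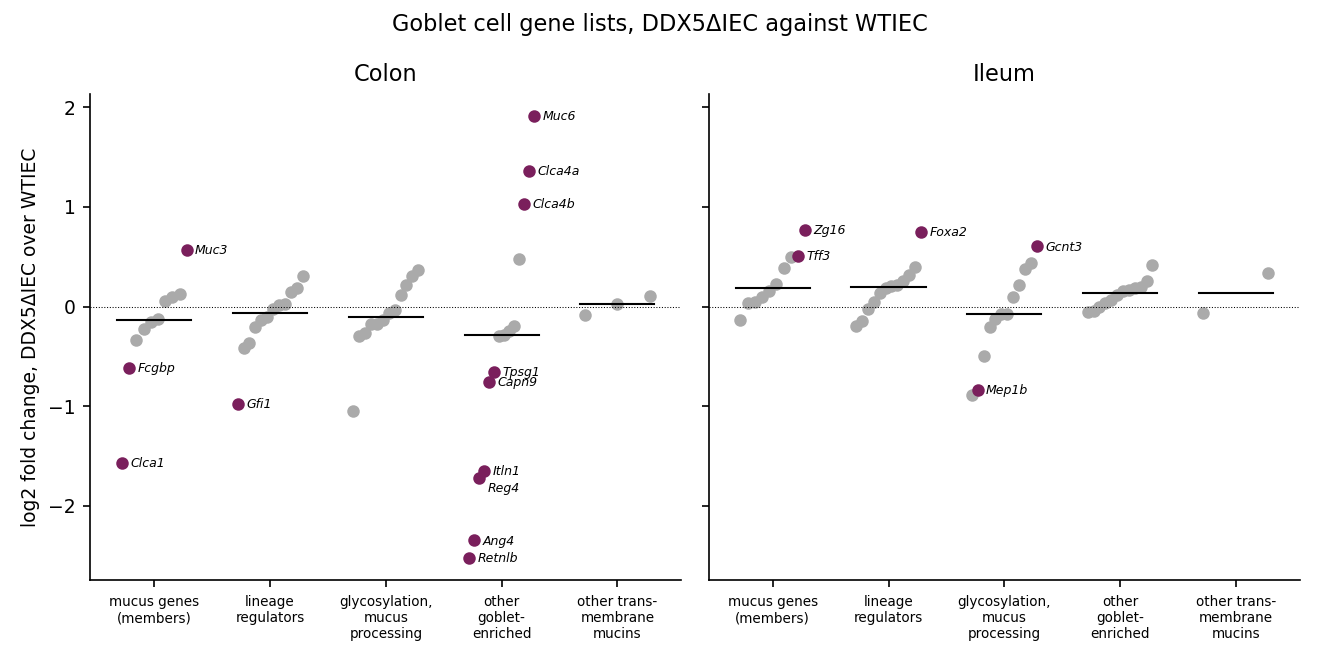
The log2 fold change in DDX5ΔIEC over WTIEC of every tested gene of the 5 lists, colon on the left and ileum on the right, with a line at each median and purple, named points for genes past the study's criterion. In the colon the other goblet-enriched genes reach from -2.53 (Retnlb) to 1.92 (Muc6), whereas in the ileum all of them lie between -0.05 and 0.42.

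The genes with the pattern most like that of Muc2 were found by the Pearson correlation of log2 CPM over the 8 libraries, among 9014 genes with a mean of at least 10 CPM. They were Med23, a Mediator subunit (0.97), Leo1, a subunit of the PAF1 complex (0.95), Rnf31, a ubiquitin ligase (0.95), Slc4a2, an anion exchanger (0.95), and Bet1, a SNARE of vesicle transport (0.94). No other mucus gene was among these 5. Agr2 had 0.82 and rank 130, Klk1 0.74, Fcgbp 0.59, Zg16 0.45, Clca1 0.07 and Muc13 -0.1, while Muc3 (-0.52), Spink4 (-0.68) and Tff3 (-0.77) ran against Muc2. The 8 points share 4 mice, include both tissues and hold the high Muc2 value of DDX5ΔIEC colon replicate 2, so these correlations are a description.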

How the data were processed

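Colonic and ileal IECs of 2 WTIEC and 2 DDX5ΔIEC mice were profiled by RNAseq of ribosome-depleted RNA. The authors aligned paired-end reads to mm10 with STAR 2.6.1a and deposited raw counts of exonic reads for every gene, made with featureCounts. Only uniquely mapped reads were counted, so reads that Klk1 shares with near copies are missing from it. The authors also deposited a normalized signal (each count over its library's size factor) and their own fold changes and p-values from DESeq2 1.18.1, which were not used here. The gene length was taken from the deposited tables.

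The 2 count tables were joined by gene identifier, and a gene listed in 1 table was set to 0 in the other. Genes were kept by edgeR's filterByExpr (minimum count 10), scaled by TMM, and the quasi-likelihood test of edgeR 4.0.16 (R 4.3.3) was run within each tissue with the replicate number as a block, and over all 8 libraries with the mouse as a block for tissue differences and the interaction. Adjusted p-values follow Benjamini and Hochberg, over all genes tested. Error is the SE of the log2 fold change, or the SD of 2 mice. P-values rest on the spread left after the block is fitted, with its estimate shared across genes. For tissue differences and the interaction, this is how far the tissue difference varied between mice of the same genotype. With 2 mice against 2, an exact permutation test cannot give a two-sided p below 0.333, so no such test is given. The fits were also run on simulated counts drawn without mouse or replicate effects. That run cannot show how the fits behave with the differences between these mice.

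The deviations of same-numbered WTIEC and DDX5ΔIEC libraries correlated at -0.00041 in the colon and 0.125 in the ileum over 16178 genes, and those of the colon and ileum of the same mice at 0.14 in both genotypes. The mouse numbers of the study tie the tissues to a mouse.

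The members, the gene and marker lists and the tests were chosen with earlier results of these data known. Named were the members, Ddx5, list genes past the study's criterion between genotypes or among the 3 widest differences between WTIEC tissues in their list, and the 5 genes most like Muc2 (log2 CPM, prior count 2). Positions come from GENCODE vM21 of GRCm38, promoter windows from RefSeq. Alternatives were no block, DESeq2 1.42.0, RLE scaling, no filter on low counts, all 8 libraries in 1 fit, no repeat-like genes and each library left out (within a tissue without the block, which would leave no degrees of freedom). The study's own model held a harvest covariate, for which the replicate number stood in here. Figures were drawn with matplotlib 3.10.9 under Python 3.11.15.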

Additional observations from a re-analysis of the deposited data

How the results depend on the processing

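RLE scaling changed no direction, call or count by over 1.5 times. Without the replicate block, genes at an adjusted p under 0.05 numbered 5 in the colon (0 with it), 1 in ileum (98 with it) and 2 for the interaction (1 with it), 1 mucus gene was past the criterion in the ileum (2 with it), and the interaction of Muc2 was -0.0314. DESeq2 gave 117 genes in the colon, 39 in the ileum and 36 for the interaction, 508 (colon) and 414 (ileum) past the criterion (1031 and 1034 with edgeR), and mucus genes at an adjusted p under 0.05 numbered 3 (colon), 1 (ileum) and 1 (interaction). With no filter on low counts the ileum had 423 genes and the interaction 318, with 1 mucus gene past the criterion and 1 at an adjusted p under 0.05 in the ileum and 2 for the interaction. Muc3 in the ileum was then -0.00475, and Muc13 between DDX5ΔIEC tissues -0.0498. All 8 libraries in 1 fit gave 10 genes (colon) and 7 (ileum) and ended the call of Fcgbp in the colon, and the ileum without the 3 repeat-like genes 20. The cause of these shifts was not tested.

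With 1 library left out, which leaves 1 mouse of a group, assumed to vary like the others, genes at an adjusted p under 0.05 ranged from 0 to 2506 in the colon, 1 to 23 in the ileum, 2444 to 7731 between WTIEC tissues and 0 to 327 for the interaction, and genes past the criterion from 608 to 2388 in the colon and 479 to 1574 in the ileum. Mucus genes at an adjusted p under 0.05 ranged from 0 to 5 in the colon, 2 to 9 between WTIEC tissues and 0 to 2 for the interaction, and those past the criterion in the ileum from 0 to 4. The log2 values that changed sign with a library left out had not passed with all libraries: in the colon Muc2 (-0.486 to 0.639), Zg16 (-0.0907 to 0.336), Klk1 (-0.252 to 0.00594), in the ileum Muc2 (-0.067 to 0.375), Clca1 (-0.0709 to 0.278), Klk1 (-0.0375 to 0.127), Muc13 (-0.278 to 0.681), Muc3 (-0.0981 to 0.174), between WTIEC tissues Muc13 (-0.431 to 0.17), between DDX5ΔIEC tissues Fcgbp (-0.742 to 0.0164), Muc13 (-0.422 to 0.492) and for the interaction Muc2 (-0.297 to 0.415), Agr2 (-0.0697 to 0.247), Klk1 (-0.0653 to 0.385), Muc13 (-0.292 to 0.627). The other members kept their sign in each comparison with any 1 library left out. Same-numbered WTIEC and DDX5ΔIEC mice were not shown to be pairs, so the replicate block rests on the number alone. Depth limits the genes with few counts, such as Muc6 and Tff2.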
